A study of Mus musculus with 8 samples.

Results

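The G1 cyclins, kinases and inhibitors were 9 genes chosen by symbol: the D-type cyclin genes Ccnd1, Ccnd2 and Ccnd3, the kinase genes Cdk4 and Cdk6, and the inhibitor genes Cdkn1a, Cdkn1b, Cdkn2c and Cdkn2d. Of these 9, 8 had a row with exactly 1 gene symbol, out of 19938 such genes in the table. The row of Cdkn1a carries several symbols, so Cdkn1a was not analysed here. Cdkn1b had 2 rows and the brighter one stood for it.

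RNA was measured on 8 microarrays of cells sorted from mouse bone marrow at 7 weeks of age. The groups were KO LSK, Het LSK, KO GMP and Het GMP, with 2 arrays each. LSK cells include the blood stem cells and the multipotent progenitors. GMP cells are the progenitors of granulocytes and macrophages. KO mice were Vav1-iCre x Cbfb(F/F), with both alleles of Cbfb floxed, and Het mice were Vav1-iCre x Cbfb(F/+), with 1 floxed and 1 intact allele. All groups therefore carried the Cre, which the Vav1 promoter drives in blood cells, all were on a backcrossed C57BL6 background, and no group was without Cre. Cbfb encodes the shared partner of the Runx transcription factors, which strengthens their hold on DNA. Cells came from 2 mice of each genotype. The labels call the arrays biological replicates without tying an array to a mouse, and the p-values rest on the spread between arrays.

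D-type cyclins bind Cdk4 or Cdk6, and the active kinases phosphorylate the retinoblastoma protein, which frees E2F factors to start S phase. Cyclin genes respond to growth factor signals, so the cyclin is the part of the complex that couples division to the environment of the cell. The inhibitors are of 2 families: INK4 proteins such as those of Cdkn2c and Cdkn2d bind Cdk4 and Cdk6 directly, and Cip/Kip proteins such as that of Cdkn1b act on cyclin-kinase complexes, mainly those of Cdk2. In blood progenitors of the mouse, this set is known for its part in stem cell quiescence and in the expansion of myeloid and lymphoid progenitors.

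RefSeq promoter windows (build GRCm38.p6, 250 bases before to 50 after a start) were held for 7 of the 9 genes, in 10 windows. No window was held for Ccnd1 or Ccnd2, so the promoters of these genes were not searched. They were searched on both strands for TGTGGT and TGCGGT, the core letters of the RUNX motif, which do not overlap each other in these windows. Of all 32851 windows, 22.4% held a match, and of the 10 windows 2 did. The kinase windows are shown because Cdk6 rose in KO LSK and Cdk4 passed in neither cell type, and the first of the 2 Ccnd3 windows because it is the D-type cyclin window with a match. Matched letters are in capitals; ACCACA is TGTGGT read on the other strand. All are printed 5′ to 3′ on the strand of the gene.
Cdk6 (chr5:3343643-3343942, + strand): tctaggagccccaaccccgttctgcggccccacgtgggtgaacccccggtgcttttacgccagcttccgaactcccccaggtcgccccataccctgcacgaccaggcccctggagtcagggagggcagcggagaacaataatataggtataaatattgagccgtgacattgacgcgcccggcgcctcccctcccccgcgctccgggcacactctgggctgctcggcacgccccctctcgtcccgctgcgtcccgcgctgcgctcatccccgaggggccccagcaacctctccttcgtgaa
Cdk4 (chr10:127063285-127063584, + strand): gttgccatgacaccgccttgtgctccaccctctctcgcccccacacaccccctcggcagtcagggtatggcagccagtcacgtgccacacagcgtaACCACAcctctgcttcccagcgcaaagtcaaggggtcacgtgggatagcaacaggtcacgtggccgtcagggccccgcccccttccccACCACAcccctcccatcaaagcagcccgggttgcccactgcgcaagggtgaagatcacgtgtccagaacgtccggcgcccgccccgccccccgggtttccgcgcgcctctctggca
Ccnd3 (chr17:47504801-47505100, + strand): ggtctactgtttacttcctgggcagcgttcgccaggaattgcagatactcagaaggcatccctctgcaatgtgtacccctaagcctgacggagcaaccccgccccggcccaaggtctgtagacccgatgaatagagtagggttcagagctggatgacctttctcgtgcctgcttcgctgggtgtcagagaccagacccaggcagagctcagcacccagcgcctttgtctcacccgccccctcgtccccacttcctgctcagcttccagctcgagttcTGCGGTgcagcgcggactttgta
Cdk4 had its matches at positions -154 and -66 relative to the start, Ccnd3 had 1 at position 27, and the Cdk6 window had 0. These letters are a description of the windows and say nothing of binding.

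Values are log2 expression values made by the authors with RMA, and a difference of 1 is a doubling. Over the 21789 rows tested, correlations were 0.990 to 0.995 within groups and 0.955 to 0.983 between groups. Array medians lay between 4.92 and 5.09, and all 8 genes stood above their array's median on every array, except Cdkn2c on 1 array. The targeted gene Cbfb stood at 6.93 and 6.98 in KO LSK, against 7.56 and 7.55 in Het LSK (-0.60, adjusted p = 0.0557). It stood at 6.48 and 6.96 in KO GMP, against 7.53 and 7.65 in Het GMP (-0.86, adjusted p = 0.0130). Of the marker lists, the 8 GMP genes had medians of 11.5 in both KO GMP arrays and 11.8 to 11.9 in Het GMP, against 8.63 to 9.24 in KO LSK and 9.35 to 9.67 in Het LSK. The LSK list, with 4 of 6 genes measured, had medians of 9.15 and 8.78 in KO LSK, against 10.1 and 10.3 in Het LSK. Within it Kit averaged 10.6 in KO LSK and 10.2 in Het LSK, Cd34 10.8 in KO LSK and 11.0 in Het LSK, Slamf1 7.30 in KO LSK and 4.90 in Het LSK, and Flt3 6.83 in KO LSK and 10.2 in Het LSK. Ly6a, which defines LSK cells, was not analysed here.

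The first comparison asked how the G1 genes differ between KO and Het in LSK cells. Ccnd1 and Ccnd2 fell and Cdk6 rose, and the other 5 genes did not pass the test. A gene passed where limma's p, adjusted by Benjamini-Hochberg over all 21789 rows, was under 0.05. In all, 7.73% of rows passed in this comparison, and 3 of the 8 genes did. In 6 of the 8 genes the arrays of the groups did not overlap, which was so for 45.5% of all rows. The median difference of the 8 genes was -0.09, beside 0.01 over all rows. The intervals given below are 95% intervals of 1 gene, not adjusted for the number of genes.

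Ccnd1, the cyclin D1 gene, stood at 5.60 and 5.59 in KO LSK, against 7.28 and 7.28 in Het LSK. The pairs were tight and far apart. The difference was -1.68 (SE 0.12, adjusted p = 7.67e-05), a level 3.21-fold lower. Ccnd2, the cyclin D2 gene, stood at 8.63 and 8.59 in KO LSK, against 9.66 and 9.82 in Het LSK. Both KO arrays were below both Het arrays, and Ccnd2 fell by 1.13 (SE 0.12, adjusted p = 0.000643), which is 2.19-fold. Ccnd3, the cyclin D3 gene, stood at 8.18 and 8.03 in KO LSK, against 8.10 and 8.08 in Het LSK. Here the groups overlapped, and the difference was 0.01 with an interval of -0.29 to 0.31 (adjusted p = 0.979). Both falls held with each array left out in turn, with adjusted p-values up to 0.00128 for Ccnd1 and 0.00839 for Ccnd2.

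The kinase genes differed from each other. Cdk6 stood at 10.8 and 10.7 in KO LSK, against 10.3 and 10.0 in Het LSK, without overlap. It rose by 0.59 (SE 0.13, adjusted p = 0.0232), which is 1.50-fold. It no longer passed when KO LSK replicate 1 (adjusted p = 0.0858) or Het LSK replicate 2 (0.152) was left out, when the whole table was tested (0.0631) and when the LSK arrays were fitted alone (0.0961). Cdk4 stood at 9.84 and 10.03 in KO LSK, against 10.24 and 10.01 in Het LSK. Its groups overlapped, and the difference was -0.19 with an interval of -0.49 to 0.10 (adjusted p = 0.476).

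None of the 3 inhibitor genes passed in LSK. Cdkn2c, which encodes the INK4 protein p18, stood at 4.82 and 6.12 in KO LSK, against 6.48 and 6.34 in Het LSK. Both KO arrays were lower, but they lay far from each other, with an SD of 0.92 against 0.10 in Het LSK. The difference was -0.94 (SE 0.36, adjusted p = 0.181). Leaving out KO LSK replicate 1 made it -0.30. Leaving out KO LSK replicate 2 made it -1.59, which passed (adjusted p = 0.00511). Cdkn2d, which encodes the INK4 protein p19, stood at 6.78 and 6.64 in KO LSK, against 6.31 and 6.39 in Het LSK. The KO arrays were higher, and the difference of 0.36 (interval 0.06 to 0.66) did not pass (adjusted p = 0.163). Cdkn1b, which encodes the Cip/Kip protein p27, stood at 8.94 and 8.83 in KO LSK, against 8.74 and 8.70 in Het LSK, a difference of 0.17 (interval -0.19 to 0.52, adjusted p = 0.646). The other row of Cdkn1b gave -0.22 (adjusted p = 0.651), so the rows differ in sign and neither passed.

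**Figure D1:**
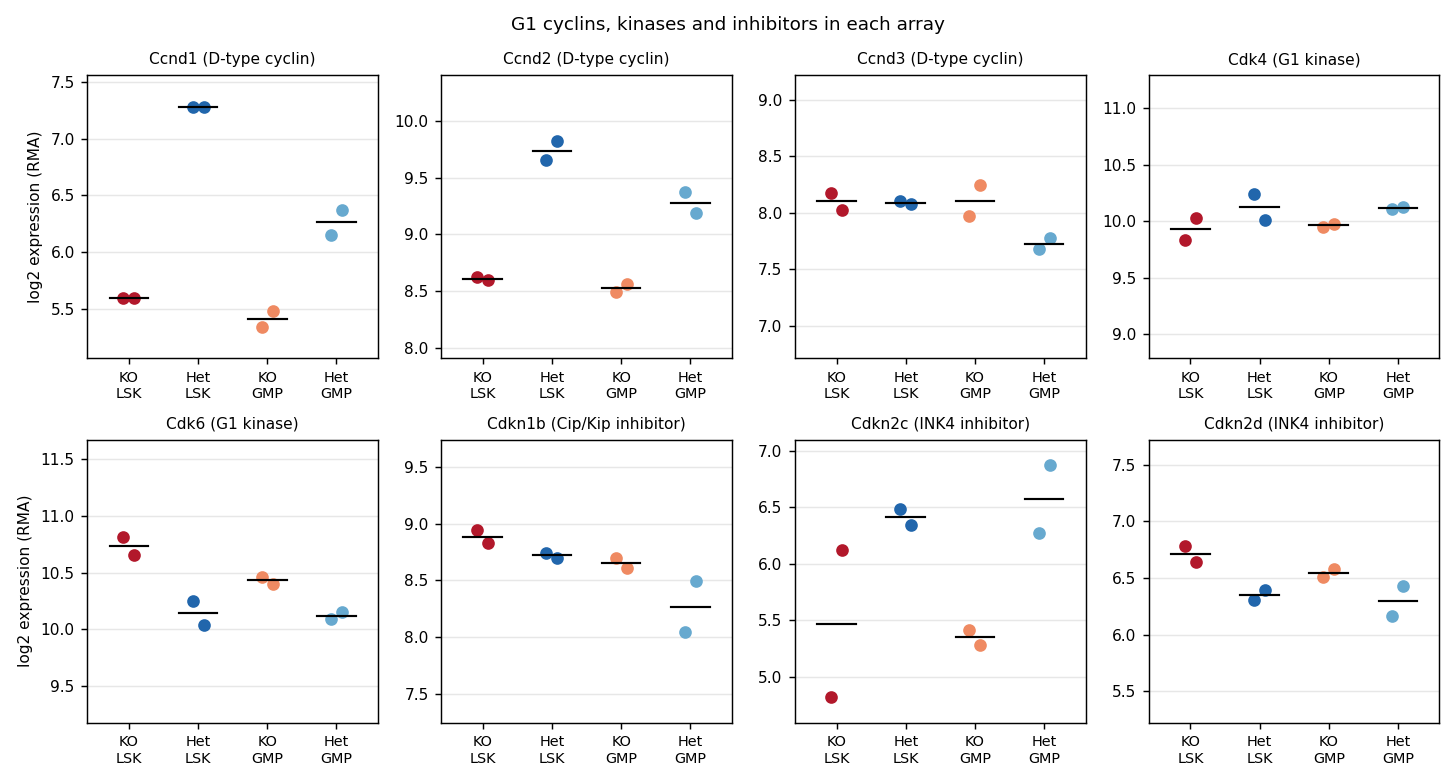
Log2 expression (RMA) of the 8 genes in each of the 8 arrays, with points for arrays and bars for the mean of 2; every panel spans the same log2 range. Ccnd1 and Ccnd2 were low in KO LSK and KO GMP, at 5.60 and 5.41 and at 8.61 and 8.53 on average, and Cdkn2c in KO LSK was split between 4.82 and 6.12.

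The same comparison was made in GMP cells. Ccnd1 and Ccnd2 fell again, and the other 6 genes did not pass. Here 6.02% of all rows passed, beside 2 of the 8 genes. The groups did not overlap in any of the 8 genes, and in 51.3% of all rows. The median difference was 0.05, beside -0.02 over all rows. The GMP and LSK comparisons have no arrays in common, but they are not independent. Cells came from 2 mice of each genotype, and limma's error was shared over all 8 arrays.

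Ccnd1 stood at 5.34 and 5.48 in KO GMP, against 6.15 and 6.37 in Het GMP. It fell by 0.85 (SE 0.12, adjusted p = 0.00362), which is 1.81-fold, and this held with each array left out (adjusted p up to 0.0405). Ccnd2 stood at 8.49 and 8.56 in KO GMP, against 9.37 and 9.19 in Het GMP. It fell by 0.75 (SE 0.12, adjusted p = 0.00711), which is 1.69-fold; it no longer passed when Het GMP replicate 1 (adjusted p = 0.0779) or KO GMP replicate 1 (0.0617) was left out. Ccnd3 stood at 7.97 and 8.25 in KO GMP, against 7.68 and 7.78 in Het GMP. Unlike the other cyclin genes its KO arrays were the higher ones, with a difference of 0.38 (interval 0.08 to 0.68) that did not pass (adjusted p = 0.167).

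Cdk6 stood at 10.46 and 10.40 in KO GMP, against 10.09 and 10.15 in Het GMP. As in LSK the KO arrays were higher, but the difference of 0.31 (interval 0.03 to 0.60) did not pass (adjusted p = 0.238). Cdk4 stood at 9.95 and 9.98 in KO GMP, against 10.11 and 10.13 in Het GMP, a difference of -0.15 (interval -0.44 to 0.14, adjusted p = 0.645). Cdkn2c stood at 5.42 and 5.29 in KO GMP, against 6.28 and 6.87 in Het GMP. This was the largest of the 8 differences in GMP, at -1.22 (SE 0.36), and did not pass (adjusted p = 0.0952). Its error is shared with the LSK arrays: without KO LSK replicate 1 or 2 the same difference passed (adjusted p = 0.00602 each), and it also passed when the GMP arrays were fitted alone (0.0149). Cdkn1b stood at 8.70 and 8.61 in KO GMP, against 8.04 and 8.49 in Het GMP (0.39, interval 0.03 to 0.74, adjusted p = 0.237), and its other row gave 0.33 (adjusted p = 0.489). Cdkn2d stood at 6.51 and 6.58 in KO GMP, against 6.16 and 6.43 in Het GMP (0.25, interval -0.05 to 0.55, adjusted p = 0.390).

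**Figure D2:**
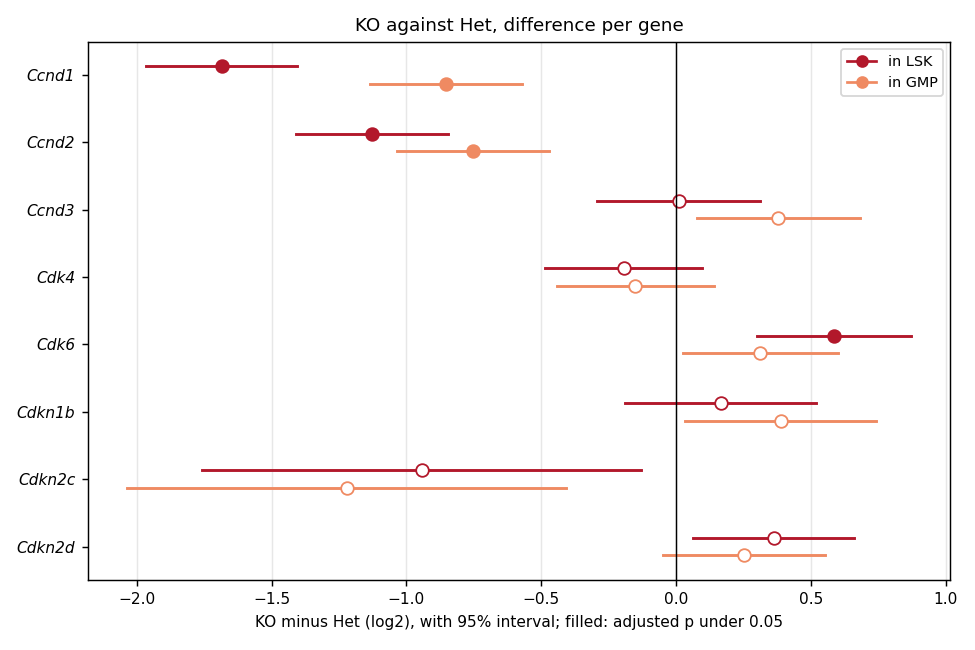
KO minus Het on the log2 scale for each gene, in LSK and in GMP, with limma's 95% interval; filled points had an adjusted p under 0.05. Ccnd1 (-1.68 and -0.85) and Ccnd2 (-1.13 and -0.75) lie left of 0 in both cell types, and Cdkn2c has the widest intervals.

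Markers of other cell types moved with genotype as well. In bulk samples, fewer cells of a type and less RNA per cell cannot be told apart. The median of the 6 measured B cell markers was 4.36 and 4.59 in KO LSK, against 7.74 and 7.08 in Het LSK. In GMP that median was 4.25 and 4.31 in KO, against 4.44 and 4.45 in Het. Of the 6 markers, 1 to 2 stood above the array median in KO GMP and 2 in Het GMP. Vpreb1 averaged 4.57 in KO GMP and 6.02 in Het GMP, but Cd79a 3.20 in KO GMP and 3.14 in Het GMP. The 8 measured megakaryocyte and platelet markers had medians of 8.44 and 8.28 in KO LSK, against 6.71 and 6.46 in Het LSK. They had medians of 9.05 and 9.33 in KO GMP, against 5.03 and 5.34 in Het GMP. In LSK these genes went both ways. Pf4 averaged 7.51 in KO LSK and 8.76 in Het LSK, and Vwf 4.92 in KO LSK and 5.68 in Het LSK. Clec1b averaged 9.15 in KO LSK and 3.24 in Het LSK. The 5 measured monocyte and macrophage markers had medians of 5.20 and 4.71 in KO GMP, against 7.11 and 6.81 in Het GMP. The 7 mature neutrophil markers had medians of 8.78 and 9.05 in KO GMP, against 10.1 and 11.0 in Het GMP. The neutrophil genes did not move together: Ngp averaged 8.35 in KO GMP and 10.6 in Het GMP, but Retnlg 8.84 in KO GMP and 6.38 in Het GMP, and S100a8 12.5 in KO GMP and 12.4 in Het GMP. The 6 mast cell and basophil markers had medians of 5.93 and 5.38 in KO GMP, against 6.91 and 7.27 in Het GMP, and of 4.57 and 4.50 in KO LSK, against 5.11 and 5.65 in Het LSK. Here too the genes went both ways, with Cpa3 at 10.9 in KO LSK and 7.03 in Het LSK and Mcpt8 at 4.38 in KO LSK and 6.08 in Het LSK. The part of these cell types in the G1 gene differences was not tested.

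The next question was whether the effect of KO differs between GMP and LSK. For Ccnd1 the GMP effect minus the LSK effect was 0.83 (SE 0.17, adjusted p = 0.0484): it fell less in GMP, on the log2 scale, than in LSK. Over all rows the median difference of effects was -0.02. In this test 2.29% of all rows passed, and Ccnd1 was the 1 of the 8 genes that did. The call is marginal, and was lost with each of the 8 arrays left out (adjusted p 0.0661 to 0.190), with array medians subtracted (which had a difference of effects of 0.14 of their own, leaving 0.69 for Ccnd1, adjusted p = 0.106), with quantile normalization (0.0657) and with all rows tested (0.139). For Ccnd2 the same difference of effects was 0.37 (interval -0.02 to 0.77, adjusted p = 0.419) and for Ccnd3 it was 0.37 (interval -0.06 to 0.80, adjusted p = 0.467). For the kinase and inhibitor genes, by the row that stood for each, it lay between -0.28 and 0.22, and none passed. The other row of Cdkn1b gave 0.55 (adjusted p = 0.494).

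The same arrays were then compared between the cell types. In Het, Ccnd1 and Ccnd2 were lower in GMP than in LSK, and in KO none of the 8 genes passed limma's test. In KO 6.05% of all rows passed and in Het 17.5%, beside 0 and 2 of the 8 genes; at an unadjusted p under 0.05, 1 gene (Cdk6) differed in KO. The arrays of GMP and LSK did not overlap for 5 of the 8 genes in KO (47.5% of all rows) and for 4 of the 8 in Het (57.9% of all rows). These comparisons share arrays with those between genotypes, so the values are set side by side only.

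Between the cell types Ccnd1 differed by -0.19 in KO (interval -0.47 to 0.09, adjusted p = 0.470) and by -1.02 in Het (SE 0.12, adjusted p = 0.000579). In Het this is a level 2.03-fold lower in GMP, and it held with each array left out (adjusted p up to 0.00853). Ccnd2 differed by -0.09 in KO (interval -0.37 to 0.20, adjusted p = 0.781) and by -0.46 in Het (adjusted p = 0.0333). The Het call for Ccnd2 was lost without Het GMP replicate 1 (0.0676) or 2 (0.199), Het LSK replicate 1 (0.0560) or 2 (0.196), or either KO GMP array (0.0569 each), and with array medians subtracted (-0.30, adjusted p = 0.116). The array medians themselves differed by -0.16 between Het GMP and Het LSK, while the median difference over all rows was 0.01. Ccnd3 differed by 0.01 in KO (adjusted p = 0.985) and by -0.36 in Het (adjusted p = 0.104). Cdk6 differed by -0.30 in KO (adjusted p = 0.237) and by -0.03 in Het (adjusted p = 0.925), and Cdk4 by 0.03 in KO and -0.01 in Het. Cdkn1b differed by -0.23 in KO (adjusted p = 0.478) and by -0.45 in Het (adjusted p = 0.0831; with Het GMP replicate 2 left out, -0.68, adjusted p = 0.0275). The other row of Cdkn1b gave -0.08 in KO (adjusted p = 0.884) and -0.63 in Het (adjusted p = 0.0713). Cdkn2c differed by -0.12 in KO and by 0.16 in Het, and Cdkn2d by -0.17 in KO and -0.06 in Het, with adjusted p-values of 0.556 or more.

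**Figure D3:**
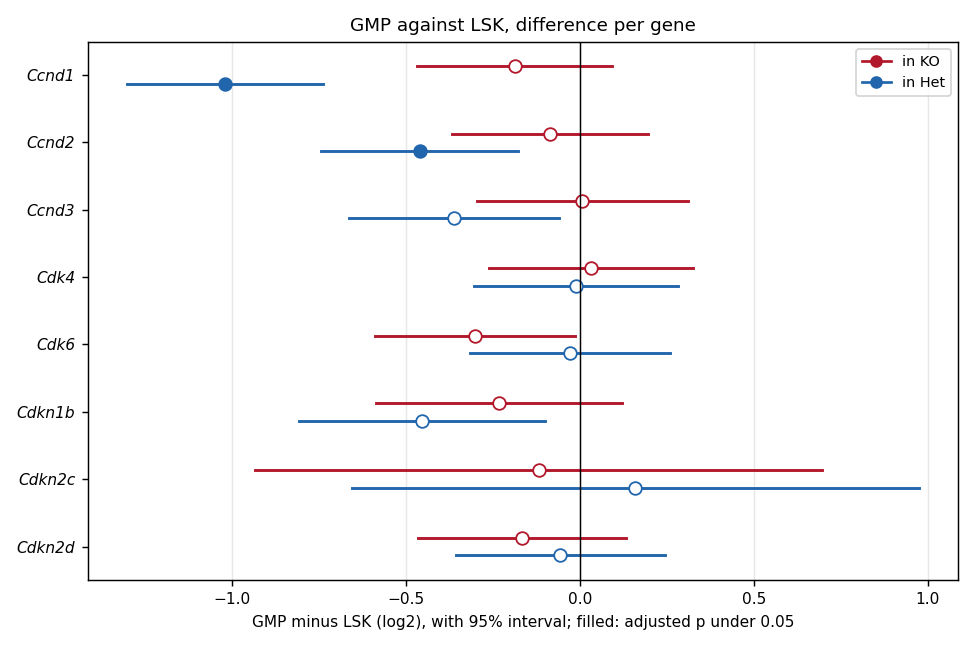
GMP minus LSK on the log2 scale for each gene, in KO and in Het, with limma's 95% interval; filled points had an adjusted p under 0.05. The interval of Ccnd1 in Het (-1.30 to -0.74) lies apart from the one in KO (-0.47 to 0.09). The KO difference minus the Het difference is 0.83, the difference of effects described above. That call was marginal (limma, adjusted p = 0.0484) and passed in 2 of the 15 alternatives run.

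The order of the 4 group means was the same for Ccnd1 and Ccnd2. Ccnd1 averaged 5.41 ± 0.10 in KO GMP, 5.60 ± 0.0041 in KO LSK, 6.26 ± 0.16 in Het GMP and 7.28 ± 0.0031 in Het LSK (SD, n = 2 each). Ccnd2 averaged 8.53 ± 0.05 in KO GMP, 8.61 ± 0.02 in KO LSK, 9.28 ± 0.13 in Het GMP and 9.74 ± 0.12 in Het LSK (SD, n = 2 each). In both genes the lowest neighbours, KO GMP and KO LSK, did not pass the test between them. Cdk6 ran the other way, with its highest mean in KO LSK (10.7 ± 0.11), then KO GMP (10.4 ± 0.04), and its Het means of 10.1 in both cell types within 0.03 of each other. Over the 8 arrays, Ccnd3 and Cdk4 spanned 0.57 and 0.40, against 1.94 for Ccnd1 and 2.05 for Cdkn2c.

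Genes whose profile over the 8 arrays was most like a G1 gene were taken by Pearson correlation among 19937 other genes, as a description only; the arrays form 4 groups, and high values are common among so many genes. For Ccnd1 they were Gm10590 (0.992), Ablim1 (0.990) and Dpp4 (0.987), for Ccnd2 Rtl6 (0.991), Map4k1 (0.990) and Khdrbs3 (0.988), and for Cdk6 Deptor (0.981), Zcchc14 (0.981) and 4632404H12Rik (0.978). Ablim1 differed by -1.94 between KO and Het in LSK and by -0.75 in GMP, and Deptor by 0.83 in LSK and 0.30 in GMP.

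Other genes of the G1 and S entry machinery were read from a list of 33 genes, all measured, which held the cyclin E genes, Cdk2, the other inhibitors, the retinoblastoma and E2F families and Myc genes. In KO against Het in LSK none of the 33 passed limma's test (4 higher and 0 lower at an unadjusted p under 0.05), with a median of -0.03; of all rows 7.73% passed. With single arrays left out, an alternative for the lists chosen after seeing the data, this median was 0.17 without KO LSK replicate 1, -0.25 without KO LSK replicate 2 and 0.04 without Het LSK replicate 1. Of the 33, 19 were below 0 with all arrays, against 10 without KO LSK replicate 1 and 23 without KO LSK replicate 2. For no list is the share of all rows at an unadjusted p under 0.05 given here. The 4 genes that were higher at that threshold with all arrays were named after their values were seen. All 4 had adjusted p-values of 0.0784 to 0.235 by limma. Of them, Cdkn2a (5.15 in KO LSK and 4.19 in Het LSK) and Cdkn2b (5.51 in KO LSK and 4.94 in Het LSK) are the other INK4 genes. The remaining ones were Ccng1 (8.73 in KO LSK and 8.30 in Het LSK) and Ccng2 (7.84 in KO LSK and 7.10 in Het LSK). In GMP 1 of the 33 rose and 0 fell (5 higher and 1 lower at an unadjusted p under 0.05), against 6.02% of all rows that passed. The median there was -0.03 (0.03 without Het GMP replicate 2 and -0.13 without KO GMP replicate 2). The one that rose was Mycn, a Myc family transcription factor gene, at 5.43 and 5.73 in KO GMP, against 4.38 and 3.38 in Het GMP. In Het GMP Mycn lay below the array medians of 4.93 and 4.92. Its difference was 1.69 (SE 0.31, adjusted p = 0.0118), and it did not pass without KO GMP replicate 2 (0.0979) or without Het GMP replicate 2 (0.0526). In LSK Mycn averaged 6.71 ± 0.32 in KO and 6.40 ± 0.28 in Het (SD, n = 2 each; adjusted p = 0.676).

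In the list of S phase and mitosis genes, 0 of 23 measured genes passed limma's test in LSK and 0 in GMP (1 lower and 0 higher in each at an unadjusted p under 0.05). The direction in LSK rested on 1 library. With all arrays, all 23 differences in LSK were below 0 (median -0.20), but with KO LSK replicate 1 left out 19 of 23 were above 0 (median 0.19). With KO LSK replicate 2 left out all 23 were below 0 (median -0.59), and without Het LSK replicate 1 the median was -0.11. With array medians subtracted, 19 of 23 were below 0 in LSK (median -0.11), against 1 of 23 when KO LSK replicate 1 was left out (median 0.30). In GMP 20 of 23 were below 0 (median -0.14), and 15 to 23 were with 1 GMP array left out, the fewest without KO GMP replicate 1 (median -0.03) and the most without KO GMP replicate 2 (median -0.27). With array medians subtracted, 23 of 23 were below 0 in GMP (median -0.19), and 16 when KO GMP replicate 1 was left out (median -0.06). Of all rows, 48.2% in LSK and 53.2% in GMP were below 0 with the values as deposited. The share of all rows below 0 with array medians subtracted is not given here. The largest differences were Cenpf, a kinetochore gene, in LSK (-0.56, adjusted p = 0.265), and Aurkb, a mitotic kinase gene, in GMP (-0.55, adjusted p = 0.311). That of Cenpf shrank to -0.09 (adjusted p = 0.781) when KO LSK replicate 1 was left out and passed at -1.03 (adjusted p = 0.00375) when KO LSK replicate 2 was.

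Genes that p53 is known to activate, other than Cdkn1a, were the last list, which shares Ccng1 with the list of G1 and S entry genes. In LSK 1 of 19 measured genes rose and 0 fell (5 higher and 1 lower at an unadjusted p under 0.05), which is near the 7.73% of all rows that passed. In GMP 3 rose and 0 fell (7 higher and 0 lower at an unadjusted p under 0.05), where 6.02% of all rows passed. The median was 0.05 in LSK (-0.02 without Het LSK replicate 1 and 0.01 without KO LSK replicate 1) and 0.37 in GMP (0.19 without Het GMP replicate 1). With KO LSK replicate 1 left out, 9 of the 19 were below 0 in LSK, against 7 with all arrays. Btg2, an antiproliferative gene and also an early response gene, averaged 9.50 ± 0.35 in KO LSK and 8.49 ± 0.25 in Het LSK (SD, n = 2 each), and it rose by 1.01 (adjusted p = 0.0154; 0.0624 without KO LSK replicate 1 and 0.114 without Het LSK replicate 1). In GMP it stood at 9.06 and 8.94 in KO, against 7.44 and 7.79 in Het, and it rose by 1.39 (adjusted p = 0.00351). Trp53inp1, a stress response gene, rose by 1.50 in GMP (adjusted p = 0.000322), where it stood at 6.92 and 6.95 in KO, against 5.36 and 5.51 in Het. Plk2, a kinase gene, rose by 1.35 in GMP (adjusted p = 0.00166), where it stood at 5.18 and 5.44 in KO, against 4.05 and 3.88 in Het. In Het GMP Plk2 lay below the array medians of 4.93 and 4.92. In LSK Trp53inp1 differed by 0.10 and Plk2 by -0.22, and neither passed (adjusted p = 0.786 and 0.552).

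**Figure D4:**
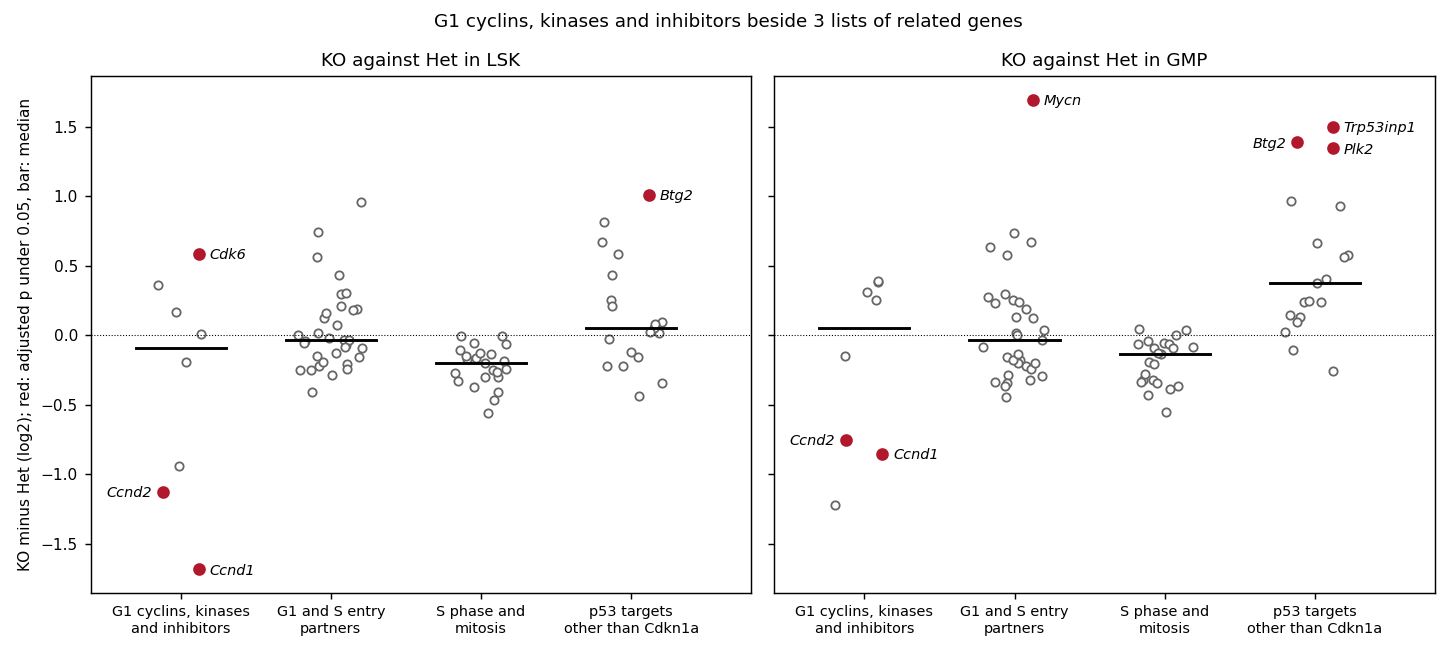
KO minus Het on the log2 scale for the 8 G1 genes and for each measured gene of the 3 lists, in LSK and in GMP; each point is a gene, red points had an adjusted p under 0.05 and bars are medians. Ccnd1 and Ccnd2 are the named points below 0, and no gene of the S phase and mitosis list passed, with medians of -0.20 in LSK, which turned to 0.19 without KO LSK replicate 1, and -0.14 in GMP.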

How the data were processed

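RNA of sorted LSK and GMP cells was amplified with a NuGEN kit, labelled with biotin and hybridised to Affymetrix Mouse Gene 1.0 ST arrays, per the labels' protocols and the design text. The authors deposited log2 values from RMA, per the submitters' processing notes; the version and the genome build were not given in the sources used here. RMA gives no detection call and would hide a shift of all transcripts together, and amplification can compress differences.

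Of 35556 rows, the platform's annotation gave exactly 1 symbol to 21789, several to 1621 and none to 12146. Limma (version 3.58.1, R 4.3.3) was fitted to these 21789 rows with 1 mean per group over all 8 arrays (4 residual and 4.83 prior degrees of freedom), and p-values, two-sided, were adjusted by Benjamini-Hochberg within each of 5 contrasts. SE is limma's. The exact permutation test of 2 against 2 arrays cannot go below p = 0.333. The fit was tested on simulated data. Groups were taken from the sample titles. No per-array depth exists for arrays, and their number limits the precision. The genes, lists and tests were chosen with earlier results of these data known. Genes named from the lists were those that passed in KO against Het or in the difference of the KO effects. Where none of a list passed, its largest differences were named. Exceptions were Cdkn2a, Cdkn2b, Ccng1 and Ccng2, named by an unadjusted p under 0.05 in LSK after their values were seen. Likeness was taken for the genes that passed in any contrast. Alternatives were scaling, normalization, the rows and arrays fitted, a trend in the prior variance, a replicate block, the mean of a gene's rows and leaving out each array.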

Additional observations from a re-analysis of the deposited data

Results flagged for a closer look

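Limma's interaction test, of the KO effect in GMP against that in LSK, passed for 3 of the genes described. They were 1 of the 8 G1 genes and 2 of the 19 measured p53 targets. None of the 33 G1 and S entry genes or the 23 measured S phase and mitosis genes passed, and 2.29% of all rows did. Ccnd1 had a GMP effect minus LSK effect of 0.83 (adjusted p = 0.0484), with KO below Het in both cell types. It did not pass with any of the 8 arrays left out (adjusted p = 0.0661 to 0.190) and passed in 2 of the 15 alternatives run. Trp53inp1 had a difference of effects of 1.40 (adjusted p = 0.00842), which passed with each of the 8 arrays left out (adjusted p up to 0.0492). Plk2 had a difference of effects of 1.57 (adjusted p = 0.0120), which passed in 6 of those 8 settings and not without KO GMP replicate 2 (0.0548) or Het GMP replicate 2 (0.0641).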

How the results depend on the processing

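The falls of Ccnd1 in LSK and GMP and of Ccnd2 in LSK kept their direction and call under all 15 alternatives run. The count of called G1 genes with 1 array left out ranged from 2 to 4 for KO against Het in LSK (3 with all arrays), 1 to 3 in GMP (2), 0 to 0 for the difference of effects (1), 0 to 0 for GMP against LSK in KO (0) and 1 to 2 in Het (2). For the difference of effects it was 0 with array medians subtracted, quantile normalization or all rows tested; for GMP against LSK in Het it was 1 with array medians subtracted, all rows tested or the 4 arrays fitted alone. With the replicate block it was 0 and 1, and the same with the replicate block within genotype; Ccnd1's difference of effects then had adjusted p = 0.0616 and 0.0626, and Ccnd2 in Het 0.0519 and 0.0553. The labels do not say what a number pairs. Deviations of same-numbered LSK and GMP arrays correlated at 0.18 in KO and 0.13 in Het. Those of same-numbered KO and Het arrays correlated at -0.14 in LSK and -0.03 in GMP. Values this small do not show which arrays belong together.

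Differences that did not pass changed sign in 24 cases, the largest of which with all arrays was Cdkn2c's difference of effects (-0.28). With array medians subtracted these were Cdk4's difference of effects (-0.0942) and, for GMP against LSK in Het, Cdk4 (0.145), Cdk6 (0.127) and Cdkn2d (0.10). With quantile normalization they were Ccnd3 (-0.0704) and Cdk4 (-0.10) for GMP against LSK in KO, and with the mean of its rows Cdkn1b in LSK (-0.0262). The others came with 1 array left out. Ccnd3 for KO against Het in LSK ranged from -0.0652 to 0.0869. Differences of effects ranged from -0.0710 to 0.158 for Cdk4, -0.0028 to 0.447 for Cdkn1b, -0.93 to 0.37 for Cdkn2c and -0.243 to 0.0225 for Cdkn2d. For GMP against LSK in KO the ranges were -0.13 to 0.15 (Ccnd3), -0.0626 to 0.128 (Cdk4) and -0.77 to 0.53 (Cdkn2c), and in Het -0.13 to 0.10 (Cdk4), -0.135 to 0.0794 (Cdk6), -0.14 to 0.46 (Cdkn2c) and -0.188 to 0.0775 (Cdkn2d). Rows called of all tested ranged, over the alternatives, from 994 to 1805 for KO against Het in LSK (1684 as reported), 634 to 1586 in GMP (1312), 182 to 705 for the difference of effects (499), 579 to 1639 for GMP against LSK in KO (1318) and 2078 to 4772 in Het (3813). The causes were not tested.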
